A study of Mus musculus with 4 samples.

Results

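Polycomb repressive complex 1 (PRC1) is described here through the transcripts of 9 of its subunits, *Ring1*, *Rnf2*, *Bmi1*, *Pcgf2*, *Cbx2*, *Cbx7*, *Cbx8*, *Phc1* and *Phc2*. They were taken by symbol from the 23420 gene symbols in the count files, and all 9 were found and passed the filter on low counts. The RNA-seq compared cervical motor neurons (MNs) of 2 genotypes, with 2 libraries each. The WT libraries came from E14, a line of mouse embryonic stem cells (mESCs), and the *Patz1* KO libraries came from E14 cells in which CRISPR/Cas9 had disrupted *Patz1*, a gene for a zinc finger protein studied as a candidate chromatin insulator. Cells of both genotypes were grown with LIF and inhibitors of MEK1/2 and GSK3, formed embryoid bodies, and received 1 μM all-trans-retinoic acid and 0.5 μM smoothened agonist from day 2. The study made several clonal *Patz1* KO lines, and which of them gave each library is not stated in the labels. Replicates were independent differentiations according to the study's methods. The sample titles name ESCs, whereas the source and cell type name MNs.

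PRC1 is the E3 ligase complex that places ubiquitin on histone H2A at repressed genes. Each complex pairs a RING protein with a PCGF protein. The canonical form adds a chromobox (CBX) protein, which reads the H3K27me3 mark laid down by Polycomb repressive complex 2 (PRC2), and a polyhomeotic (PHC) protein, which joins complexes to each other. Paralogues can replace each other at each of these positions. In the developing spinal cord, canonical PRC1 is known for keeping posterior *Hox* genes silent in anterior cells, and its CBX subunits are known to be exchanged as stem cells differentiate.

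Library totals went from 14769104 to 23881522 counts, and counting noise alone did not account for the spread of replicates (chi-square per gene 10.5 in WT and 23.4 in *Patz1* KO). *Patz1* itself had 1363 and 1499 reads in the WT libraries against 1154 and 714 in the *Patz1* KO libraries. It fell by 1.04 on the log2 scale (SE 0.10, adjusted p = 1.10e-07). The *Patz1* transcript was thus lower but still counted in the libraries labelled *Patz1* KO. The paper reports loss of PATZ1 protein by western blot in its *Patz1* KO mESC lines, which were also genotyped and sequenced. Unless another test or fit is named, each adjusted p in this text is from edgeR's quasi-likelihood F test on all 4 libraries. For it, the Benjamini-Hochberg procedure was applied over the 14269 genes tested. Fold changes are *Patz1* KO over WT, intervals are 95% and per gene, and CPM is the count per 1000000 of the TMM-scaled library. The MN label was checked against markers. All 10 MN markers were counted, and the MN genes *Mnx1* and *Chat* had a mean of 51.3 and 28.2 CPM in WT. As the samples are whole cultures, fewer cells of a type and less RNA per cell cannot be told apart.

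Of the 9 subunits, *Cbx7*, *Cbx8* and *Phc1* rose in *Patz1* KO MNs, *Cbx2* and *Bmi1* fell, and *Ring1*, *Rnf2*, *Pcgf2* and *Phc2* did not pass the test. The 5 calls are 55.6% of the members, against a background of 47.9% of all genes tested. Over all genes, 24.1% were called higher and 23.8% lower. In this fit the share of subunits called is thus close to that of any gene. DESeq2 called 5121 of 18706 genes and the same 5 subunits, so the closeness depends on the fit. Without WT replicate 2, 4521 in place of 6836 genes were called, and the same 5 subunits. The median log2 fold change was -0.03 over the 9 subunits and -0.0014 over all genes tested. The libraries of the 2 genotypes did not overlap in CPM for 7 of the 9 subunits, which is likewise near the 74.2% found over all genes. At least 2-fold changes were called for *Cbx7* and *Cbx8*, and for 12.9% of all genes. With 2 libraries against 2, an exact two-sided permutation test of a single value cannot go below p = 0.333.

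**Figure D1:**
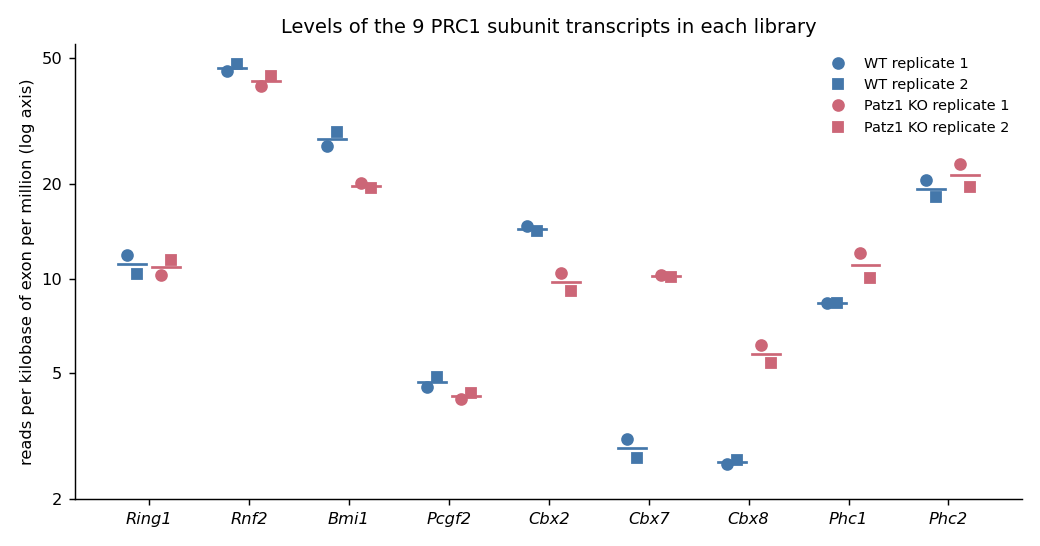
Level of each of the 9 PRC1 subunit transcripts in reads per kilobase of exon after library scaling (RPKM, log axis), for each WT library (blue) and *Patz1* KO library (red), with a line at the mean of each pair. *Cbx7* lies near 2.90 in WT and 10.2 in *Patz1* KO, while the symbols of *Ring1* and *Phc2* overlap between the genotypes.

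Levels of different genes were compared per kilobase of exon, as reads per kilobase of exon scaled to 1000000 reads of the TMM library size (RPKM). In WT the order of mean levels was *Rnf2* (46.8 RPKM), *Bmi1* (27.7 RPKM), *Phc2* (19.3 RPKM), *Cbx2* (14.4 RPKM), *Ring1* (11.1 RPKM), *Phc1* (8.38 RPKM), *Pcgf2* (4.70 RPKM), *Cbx7* (2.90 RPKM) and *Cbx8* (2.61 RPKM). No neighbours in that order overlapped between their WT libraries, although *Cbx7* at 3.10 and 2.71 RPKM lay close above *Cbx8* at 2.58 and 2.65 RPKM. In *Patz1* KO, *Rnf2* stayed at the top with 42.4 RPKM and was followed by *Phc2* (21.4 RPKM) and *Bmi1* (19.7 RPKM), whose libraries overlapped. *Phc1* (11.0 RPKM), *Ring1* (10.9 RPKM), *Cbx7* (10.2 RPKM) and *Cbx2* (9.77 RPKM) came next, where *Phc1* overlapped *Ring1* and *Cbx7* overlapped *Cbx2*, while the libraries of *Ring1* (10.3 and 11.4 RPKM) lay just above those of *Cbx7* (10.2 and 10.1 RPKM). *Cbx8* (5.76 RPKM) and *Pcgf2* (4.25 RPKM) were the lowest. By exon length *Cbx7* went from 8th to 6th in the order and *Cbx2* from 4th to 7th. With the length of the longest transcript in place of all exons, *Bmi1* and *Phc2* changed places in WT. In *Patz1* KO, that length placed *Cbx2* (10.9 RPKM, rank 6) level with *Cbx7* (10.9 RPKM, rank 7) and *Pcgf2* above *Cbx8*, so the order within these pairs depends on the length used.

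The RING subunits carry the E3 ligase activity. *Ring1* encodes RING1A and lies at chr17:34020792-34024680 on the minus strand of GRCm38 (mm10). It had 574 and 533 reads in the WT libraries against 809 and 622 in the *Patz1* KO libraries, or 38.5 and 33.5 CPM against 33.4 and 37.1 CPM. The genotypes overlapped, and the log2 fold change was -0.03 (95% interval -0.26 to 0.19, adjusted p = 0.814). *Rnf2*, at chr1:151458004-151500955 on the minus strand, encodes RING1B, the RING paralogue with the higher level here. It had 2800 and 3148 reads in the WT libraries against 4100 and 3038 in the *Patz1* KO libraries, or 188 and 198 CPM against 169 and 181 CPM. Both *Patz1* KO libraries were below both WT libraries, but the log2 fold change of -0.14 did not pass the test (95% interval -0.32 to 0.04, adjusted p = 0.193). *Rnf2* supplied 79.3% and 82.3% of RING reads per kilobase in WT and 79.9% and 79.3% in *Patz1* KO. The intervals of both RING genes include 0 and also changes of -0.26 and -0.32, so equal levels were not shown.

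The PCGF subunits bind the RING protein and decide which form of PRC1 is assembled. *Bmi1* (PCGF4) lies at chr2:18677018-18686629 on the plus strand and is known for sustaining the self-renewal of neural stem cells. It had 1556 and 1843 reads in the WT libraries against 1934 and 1292 in the *Patz1* KO libraries, or 104 and 116 CPM against 79.8 and 77.0 CPM. Both *Patz1* KO libraries were below WT, and *Bmi1* fell by 0.49 on the log2 scale (SE 0.09, 95% interval -0.68 to -0.30, adjusted p = 0.000236). *Pcgf2* (MEL18), at chr11:97688823-97700497 on the minus strand, is the closest paralogue of *Bmi1*. It had 238 and 273 reads in the WT libraries against 355 and 257 in the *Patz1* KO libraries, or 16.0 and 17.2 CPM against 14.6 and 15.3 CPM. Its log2 fold change of -0.15 was in the same direction and was not called (95% interval -0.42 to 0.13, adjusted p = 0.372).

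*Bmi1* therefore remained the main source of PCGF2/PCGF4 transcripts. It supplied 85.3% and 85.7% of the reads per kilobase of the pair in WT and 82.9% and 81.7% in *Patz1* KO. The sum of the pair per kilobase in *Patz1* KO was 0.739 of that in WT, from 30.8 and 34.0 RPKM to 24.2 and 23.7 RPKM. The RING sum was 0.921 of WT. These sums carry no test.

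The chromobox subunits changed in both directions. The rises of *Cbx7* and *Cbx8* were the largest changes among the 9, while the fall of *Cbx2* (-0.55 on the log2 scale) was close to that of *Bmi1* (-0.49). *Cbx7* lies at chr15:79915807-79971119 on the minus strand, and its product is the main canonical CBX reader of mESCs. It had 300 and 279 reads in the WT libraries against 1611 and 1098 in the *Patz1* KO libraries. This corresponds to 20.1 and 17.5 CPM against 66.5 and 65.5 CPM, and each *Patz1* KO library was more than 3 times each WT library. *Cbx7* rose 3.50-fold (95% interval 3.00 to 4.09), a log2 fold change of 1.81 ± 0.11 (SE, adjusted p = 3.96e-10). Of all genes tested, 1.35% had a higher log2 fold change. Its exons share 100 bases with the opposite-strand gene *Apobec3*, or 1.54% of their length.

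*Cbx2* and *Cbx8* lie side by side on chromosome 11 and moved in opposite directions. *Cbx2*, at chr11:119022962-119031270 on the plus strand, encodes a reader known for compacting chromatin. It had 928 and 957 reads in the WT libraries against 1074 and 652 in the *Patz1* KO libraries, or 62.3 and 60.2 CPM against 44.3 and 38.9 CPM. *Cbx2* fell by 0.55 on the log2 scale (SE 0.10, 95% interval -0.76 to -0.35, adjusted p = 0.00018), with both *Patz1* KO libraries below WT. *Cbx8*, at chr11:119036305-119040969 on the minus strand, encodes a reader taken up by PRC1 as mESCs differentiate. It had 141 and 155 reads in the WT libraries against 547 and 332 in the *Patz1* KO libraries, or 9.47 and 9.75 CPM against 22.6 and 19.8 CPM. *Cbx8* rose 2.21-fold (95% interval 1.80 to 2.71), a log2 fold change of 1.14 ± 0.14 (SE, adjusted p = 2.95e-06), and its genotypes did not overlap.

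The annotated 3′ ends of *Cbx2* and *Cbx8* face each other across 5.03 kb. On the other side of *Cbx2*, the nearest tested gene was *Rbfox3*, a neuronal splicing factor also known as NeuN, with 163 and 152 reads in the WT libraries against 447 and 330 in the *Patz1* KO libraries. It rose by a log2 fold change of 0.89 ± 0.14 (SE, adjusted p = 4.95e-05). The near end of *Rbfox3* lies at -111 kb from the start of *Cbx2*, much farther away than *Cbx8*. Among tested genes, *Cbx2*, which fell, thus lay between *Rbfox3* and *Cbx8*, which both rose.

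The makeup of the chromobox transcripts was compared as shares of the summed reads per kilobase of *Cbx2*, *Cbx6*, *Cbx7* and *Cbx8*. *Cbx2* took 57.3% and 57.8% in WT and 32.2% and 30.7% in *Patz1* KO. *Cbx7* took 12.2% and 11.1% in WT and 31.7% and 34.0% in *Patz1* KO. In WT *Cbx2* was therefore the leading transcript of these 4 in both libraries, whereas in *Patz1* KO the shares of *Cbx2* and *Cbx7* were close to each other. The mean share of *Cbx8* went from 10.5% ± 0.538 to 18.6% ± 0.623 (SD, n = 2 each). *Cbx6*, which encodes another CBX reader, went from 20.4% and 20.2% to 17.1% and 17.2%. A share falls when other members rise, and the transcript of *Cbx6* itself was not called, with a log2 fold change of 0.07 (95% interval -0.13 to 0.27, adjusted p = 0.588). The summed level of the 4 genes was 1.24 times that of WT.

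**Figure D2:**
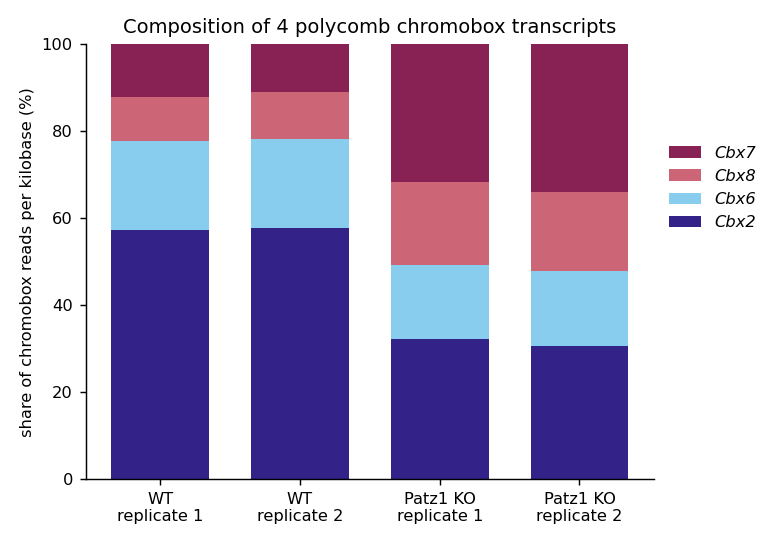
Share (%) of *Cbx2*, *Cbx6*, *Cbx7* and *Cbx8* in their summed reads per kilobase, as a stacked bar for each of the 4 libraries. *Cbx2* takes 57.3% and 57.8% of the WT bars and 32.2% and 30.7% of the *Patz1* KO bars, and *Cbx7* reaches 31.7% and 34.0%.

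Ratios within a library do not depend on how libraries were scaled, and 6 pairs of subunits were compared in this way. The count of *Cbx7* was 0.323 and 0.292 of that of *Cbx2* in WT, and 1.5 and 1.68 times that of *Cbx2* in *Patz1* KO, a difference of 2.37 in the log2 ratio. *Cbx8* over *Cbx2* went from 0.152 and 0.162 to 0.509 in each *Patz1* KO library. *Bmi1* over *Pcgf2* was 6.54 and 6.75 in WT and 5.45 and 5.03 in *Patz1* KO. The genotypes did not overlap for 5 of the 6 ratios, each with an exact two-sided permutation p of 0.333, the smallest possible (0.4 after Benjamini-Hochberg adjustment over the 6). They overlapped for *Rnf2* over *Ring1* (exact permutation p = 1, adjusted 1).

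The polyhomeotic subunits polymerize through their SAM domains. *Phc1*, at chr6:122317731-122340561 on the minus strand, had 661 and 706 reads in the WT libraries against 1546 and 890 in the *Patz1* KO libraries. Its level was 44.4 CPM in each WT library and 63.8 and 53.1 CPM in the *Patz1* KO libraries, which lay above WT and apart from each other. *Phc1* rose by a log2 fold change of 0.40 (SE 0.10, 95% interval 0.18 to 0.62, adjusted p = 0.0042). Without *Patz1* KO replicate 1 the value was 0.26 (adjusted p = 0.0217), and without *Patz1* KO replicate 2 it was 0.53. *Phc2*, at chr4:128654702-128752881 on the plus strand, had 2157 and 2035 reads in the WT libraries against 3969 and 2318 in the *Patz1* KO libraries. At 145 and 128 CPM against 164 and 138 CPM the genotypes overlapped, and the log2 fold change of 0.15 was not called (95% interval -0.06 to 0.35, adjusted p = 0.226). *Phc1* over *Phc2* was 0.306 and 0.347 in WT and 0.390 and 0.384 in *Patz1* KO. *Phc2* remained the leading polyhomeotic transcript per kilobase, with 66.6% and 63.3% in WT and 62.2% in each *Patz1* KO library.

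Promoter sequences were inspected because PATZ1 is known to bind G-rich DNA. The RefSeq table for GRCm38.p6 held promoters of 8 of the 9 subunits, without *Cbx2*, and the 250 bases before each start were searched for GGGAGGG, a G run shared by PATZ1 and MAZ motifs, on both strands (CCCTCCC on the other). The motif occurred in a promoter of 6 of these 8 subunits, which were *Cbx8*, *Ring1*, *Rnf2*, *Bmi1*, *Pcgf2* and *Phc2*. Counted by promoter it was in 60% of the 10 subunit promoters, in 26.4% of the 13318 promoters of genes tested and in 19.7% of all 32851 promoters. The subunit promoters were also richer in G and C, with a median of 65.6% against 60.0% and 52.4%. A match describes letters and is not a binding site. The 4 promoters below are shown because they hold the extremes among the subunits, from no match in the most changed one (*Cbx7*) to 3, 5 and 4 in *Cbx8*, *Bmi1* and *Pcgf2*, at chr15:79932647-79932896 (minus strand), chr11:119040914-119041163 (minus), chr2:18676768-18677017 (plus) and chr11:97699649-97699898 (minus). Capitals mark the motif on either strand, and each is written 5′ to 3′ toward the start.
Cbx7: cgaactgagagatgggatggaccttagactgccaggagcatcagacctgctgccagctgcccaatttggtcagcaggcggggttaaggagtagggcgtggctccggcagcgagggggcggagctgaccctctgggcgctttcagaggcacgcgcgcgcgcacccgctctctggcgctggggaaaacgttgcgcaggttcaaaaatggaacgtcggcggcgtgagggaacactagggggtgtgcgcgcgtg
Cbx8: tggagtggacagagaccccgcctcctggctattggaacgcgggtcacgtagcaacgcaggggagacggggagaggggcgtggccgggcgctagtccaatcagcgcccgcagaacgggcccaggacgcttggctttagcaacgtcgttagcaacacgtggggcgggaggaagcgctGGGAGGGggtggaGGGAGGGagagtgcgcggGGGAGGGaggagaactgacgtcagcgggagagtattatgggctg
Bmi1: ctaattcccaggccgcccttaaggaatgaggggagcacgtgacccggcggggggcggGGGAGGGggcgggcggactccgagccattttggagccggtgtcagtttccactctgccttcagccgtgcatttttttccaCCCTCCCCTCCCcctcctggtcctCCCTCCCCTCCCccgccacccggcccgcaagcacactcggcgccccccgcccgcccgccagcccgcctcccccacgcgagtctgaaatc
Pcgf2: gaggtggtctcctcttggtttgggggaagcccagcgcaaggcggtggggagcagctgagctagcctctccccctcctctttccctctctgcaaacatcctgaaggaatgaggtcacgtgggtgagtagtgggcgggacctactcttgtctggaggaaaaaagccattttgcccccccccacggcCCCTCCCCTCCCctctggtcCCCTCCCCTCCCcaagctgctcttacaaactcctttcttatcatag

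The paralogues *Bmi1* and *Pcgf2* share a feature that was noticed after the sequences had been seen. In both, the run CCCTCCCCTCCC, which is a pair of motif copies that overlap by 2 bases, occurs 2 times within a short stretch. Of the 13318 promoters of genes tested, 8 (0.0601%) held this run at least 2 times and 0.608% held it at least 1 time, searched on both strands. These 8 include *Bmi1* and *Pcgf2* themselves. As the run was chosen from their sequences, its rarity is no test of a shared feature. *Cbx7* and *Phc1*, which rose, held no GGGAGGG in this window, and *Cbx8*, which rose too, held 3. The RefSeq starts used for *Cbx7*, *Cbx8*, *Pcgf2* and *Phc1*, and 2 of the 3 used for *Phc2*, lie inside the spans annotated by GENCODE.

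Of 5 other genes of canonical PRC1, 1 was called (20%, against 47.9% of all genes tested). *Scml4*, a gene of the sex comb on midleg family, fell by 0.49 on the log2 scale (adjusted p = 0.0163), from a mean of 11.7 CPM to 8.30 CPM. Its call was lost with DESeq2 (adjusted p = 0.0996) and when WT replicate 1 (adjusted p = 0.116) or WT replicate 2 (adjusted p = 0.0857) was left out. *Scml2* (0.46, adjusted p = 0.0821, and 0.0410 without *Patz1* KO replicate 2), *Cbx6* (0.07), *Phc3* (-0.05) and *Scmh1* (-0.14) were not called on the log2 scale. The median of the 5 was -0.05.

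Among 27 genes of the variant PRC1 complexes, which lack a chromobox reader of H3K27me3, 4 rose and 7 fell. Their median log2 fold change was -0.07. *Mga*, the DNA-binding subunit of the PCGF6 complex, fell by 0.60 (adjusted p = 2.11e-05). *Auts2*, a subunit of PCGF3 and PCGF5 complexes linked to neural development, fell by 0.61 (adjusted p = 8.11e-05). *Dcaf7*, a WD40 scaffold protein, rose by 0.45 (adjusted p = 0.000522). The share called was 40.7%, against the background of 47.9%. Without WT replicate 1 or 2, 7 or 6 of the 27 were called.

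PRC2 places the mark that the chromobox proteins read, and 12 of its genes were tested. In its core, the log2 fold change was 0.05 for the methyltransferase *Ezh2* (adjusted p = 0.699), 0.09 for its paralogue *Ezh1* (adjusted p = 0.615) and -0.19 for *Suz12* (adjusted p = 0.0842), none of them called. The core subunit *Eed* fell by 0.25 (adjusted p = 0.0396). The histone chaperones *Rbbp4* and *Rbbp7* were called in opposite directions, at -0.26 (adjusted p = 0.0445) and 0.26 (adjusted p = 0.0315). These calls were lost without WT replicate 1 or 2, with an adjusted p of 0.165 and 0.274 for *Eed*, 0.234 and 0.310 for *Rbbp4*, and 0.371 and 0.148 for *Rbbp7*. Without *Patz1* KO replicate 1, the value of *Rbbp4* was -0.16 (adjusted p = 0.0892) and *Eed* was not called either (adjusted p = 0.0941). *Suz12* was called without *Patz1* KO replicate 2 (adjusted p = 0.0101).

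The accessory PRC2 subunits were called in both directions. *Phf19*, a Polycomb-like protein that recruits PRC2 to CpG islands, rose by a log2 fold change of 1.59 ± 0.29 (SE, adjusted p = 0.000244), from 18 and 23 reads per WT library to 104 and 62 per *Patz1* KO library. Its paralogue *Phf1* rose by 0.72 (adjusted p = 0.00136), from 122 and 115 counts to 323 and 201. Of its exon length, 39.3% is shared with the opposite-strand gene *Cuta*, so part of these reads could belong to *Cuta* if strand was not used in counting. The third paralogue of this family, *Mtf2*, fell by 0.23 (adjusted p = 0.0344), a call that was lost with DESeq2 (adjusted p = 0.0942) and without WT replicate 1 (adjusted p = 0.163) or 2 (adjusted p = 0.348). *Epop*, listed under its older symbol *E130012A19Rik*, fell by 0.56 (adjusted p = 0.0142) and was not called by DESeq2 (adjusted p = 0.0879) or without WT replicate 2 (adjusted p = 0.175). *Jarid2* (0.14, called without *Patz1* KO replicate 2 at an adjusted p of 0.0421) and *Aebp2* (-0.05) were not called. Over the 12 genes 3 rose and 4 fell, 58.3% of them against 47.9% of all genes tested, with a median of -0.0017, and 2 were called without WT replicate 2, 3 without WT replicate 1 and 4 with DESeq2.

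**Figure D3:**
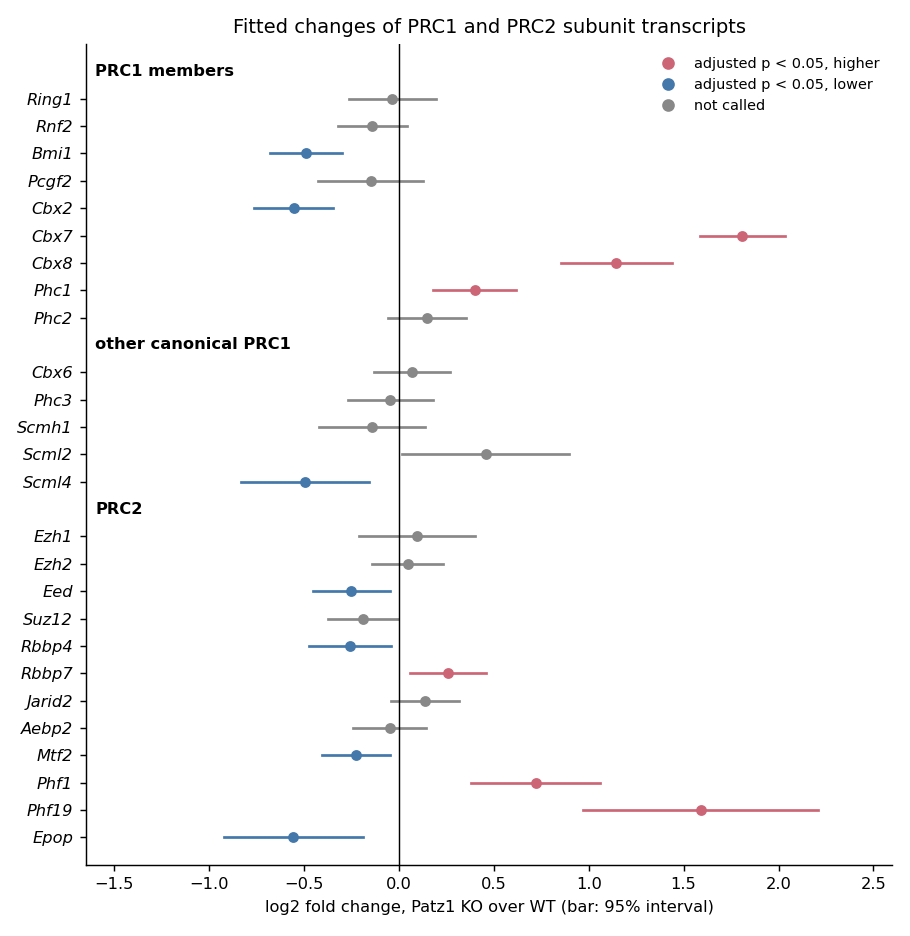
Log2 fold change (*Patz1* KO over WT) with 95% intervals for the 9 PRC1 subunits, 5 other canonical PRC1 genes and the PRC2 genes (red higher, blue lower, grey not called). *Cbx7* (1.81), *Phf19* (1.59) and *Cbx8* (1.14) stand to the right, and the points of the other genes drawn lie at 0.72 or lower.

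*Cbx7* had the smallest p of the 9 subunits, and 77 other genes of the subunit lists were ranked by how near their profile over the 4 libraries was to it. The measure was the Euclidean distance between centred log2(CPM + 1) values. *Phf19* (0.707) and *Phf1* (1.11) were nearest, and among the 8 other members *Cbx8* was (0.723). With 4 libraries in 2 groups, this ranking mostly orders genes by the size of the difference between genotypes.

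Of the 7 cyclin-dependent kinase inhibitors tested, which include the *Ink4* genes known as PRC1 targets, 5 rose and none fell, with a median log2 fold change of 0.48 (3 calls without WT replicate 2). Over all genes tested, 47.9% were called and 24.1% were called higher. *Cdkn2b*, which lies beside *Cdkn2a* at the *Ink4* locus, was not called (log2 fold change 0.06, adjusted p = 0.874). *Cdkn2c* was not called either (0.48, adjusted p = 0.132). The genes that rose included *Cdkn1a*, *Cdkn1b* and *Cdkn1c*, which are not *Ink4* genes. *Cdkn1b* rose by 0.66 (adjusted p = 3.15e-05), *Cdkn1a* by 0.69 (adjusted p = 0.00107, and 0.38 without *Patz1* KO replicate 2) and *Cdkn2d* by 0.45 (adjusted p = 0.000884). *Cdkn2a*, the classical target of *Bmi1*, had 179 and 160 reads in the WT libraries against 325 and 312 in the *Patz1* KO libraries and rose by 0.52 (SE 0.17, adjusted p = 0.0159). That call did not hold with DESeq2 (adjusted p = 0.0546), without WT replicate 2 (adjusted p = 0.130) or without *Patz1* KO replicate 2 (0.29, adjusted p = 0.101).

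Of 14 genes for the removal of ubiquitin from H2A, 7 fell and none rose, with a median of -0.25 on the log2 scale (3 calls without WT replicate 1 or 2). The share called was 50%, against 47.9% of all genes tested called in either direction and 23.8% called lower. *Asxl1* and *Asxl3*, partners of the deubiquitinase BAP1, fell by 0.48 (adjusted p = 0.000468) and 0.43 (adjusted p = 0.00157), and *Brcc3*, a deubiquitinase, by 0.43 (adjusted p = 0.00179). Of 12 trithorax, H3K27 demethylase and related genes, most of whose products oppose Polycomb, 5 fell and 1 rose. Their median was -0.19, and the share called was again 50% of the list. The methyltransferase *Kmt2a*, listed as *Mll1*, fell by 0.51 (adjusted p = 0.000145), the BAF subunit *Arid1a* by 0.48 (adjusted p = 0.000188) and the methyltransferase *Ash1l* by 0.33 (adjusted p = 0.00509, and 0.107 without WT replicate 2).

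Markers of cell state and of other cell types moved with genotype, and they stand beside the changes in PRC1. Of all genes tested, 24.1% were called higher and 23.8% lower. Of 10 MN markers 9 rose, and the summed level of the 10 was 1585 to 1720 CPM in WT and 3365 to 3742 CPM in *Patz1* KO. Most of that sum was *Nefl*, at 1039 and 951 CPM in WT and 2641 and 2365 CPM in *Patz1* KO. Of 10 proliferation genes 9 fell, from 2192 to 2312 CPM in WT to 1294 to 1303 CPM. Of 7 ventral progenitor markers 3 rose and 2 fell, with sums of 802 to 825 CPM and 598 to 618 CPM. *Nes* made up most of the difference in this sum, at 510 and 475 CPM in WT and 319 and 278 CPM in *Patz1* KO. The MN marker *Isl1* (log2 fold change -0.19, adjusted p = 0.0767) and the proliferation gene *Mcm2* (0.12, adjusted p = 0.280) were not called. Their values had the opposite sign to the rest of their lists. By these sums, *Patz1* KO cultures thus had more MN transcripts and fewer proliferation transcripts than WT cultures.

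Summed markers of primitive endoderm and of the joint list of neural crest and mesenchyme were lower in *Patz1* KO. The counts below stand against 47.9% of all genes tested called, 24.1% higher and 23.8% lower. Of 10 primitive endoderm markers 8 fell, with sums of 647 to 754 CPM in WT and 79.2 to 85.5 CPM in *Patz1* KO. Most of these sums came from *Col4a1* (477 and 560 CPM in WT, 52.4 and 57.9 CPM in *Patz1* KO) and *Lamb1*. All 8 neural crest and mesenchyme markers were called, with sums of 186 to 207 CPM and 35.8 to 41.7 CPM. The 2 that rose were the neural crest genes *Foxd3* (log2 fold change 2.51, adjusted p = 1.37e-05) and *Sox10* (0.91, adjusted p = 0.0489), and the 6 that fell included the mesenchymal genes *Col3a1*, *Pdgfra* and *Col1a1*. Residual pluripotency was low in both genotypes at 10.9 to 14.8 CPM and 7.43 to 9.30 CPM, where 2 of 5 tested genes fell and *Utf1* had 0 counts in every library. Of 3 glial markers tested 2 rose, with sums of 57.5 to 62.1 CPM and 78.1 to 97.7 CPM. All 9 oxygen response genes tested rose, from 338 to 348 CPM to 1438 to 1859 CPM. The part of these differences in the changes of *Cbx7*, *Cbx8*, *Phc1*, *Cbx2* and *Bmi1* was not tested.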

How the data were processed

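The study sequenced stranded, ribosomal RNA-depleted total RNA. The files hold raw read counts per gene symbol that the authors deposited without normalization. The submitters' processing notes name TopHat2 2.1.1, Bowtie2 2.3.1, featureCounts 1.6.2 and mm10. The annotation and the strand setting are not given in the sources used here, so reads of overlapping genes may be shared. Groups were taken from the genotype labels. Counts were TMM-normalized and filtered with filterByExpr (minimum count 10), which left 14269 genes. They were tested with edgeR 4.0.16 (R 4.3.3, limma 3.58.1) by glmQLFit and glmQLFTest at an adjusted p threshold of 0.05. The SE was taken from the F statistic (log2 fold change over its square root). The common biological coefficient of variation was 7.71%. Positions and exon lengths came from GENCODE M21 on GRCm38, which matched 23055 of 23420 symbols. The scripts were tested on simulated data.

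Alternatives were other scalings, other filters, thinning to the smallest library, robust estimation, a replicate block, DESeq2 1.42.0 (the study's tool) and leaving out each library. The 9 members and the gene lists (6 of subunits and related genes, 8 of markers) were chosen with earlier results of these data known. Named genes were the members, *Patz1*, the genes of the other canonical PRC1 and PRC2 lists, the 3 smallest p of each other list of subunits and related genes, *Cdkn2a*, the tested gene before *Cbx2*, and the 2 profiles nearest to *Cbx7*. *Mnx1*, *Chat*, *Isl1*, *Mcm2*, *Utf1*, *Foxd3*, *Sox10*, *Col3a1*, *Pdgfra*, *Col1a1*, *Cdkn1c*, *Cdkn2b*, *Cdkn2c*, *Nes*, *Nefl*, *Col4a1* and *Lamb1* were named after their values were seen. Marker lists are given by their counts and sums. *Kmt2d* and *Ezhip* could not be matched to a symbol, and 1 gene of the lists is not reported here and was left out of them.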

Additional observations from a re-analysis of the deposited data

How the results depend on the processing

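With 2 libraries per genotype, p values rest on a spread shared across genes, and leaving out 1 library assumes that the lone library varies like the other group. *Cbx2*, *Cbx7*, *Cbx8*, *Bmi1* and *Phc1* kept their call and direction in all 13 alternatives run. Leaving out *Patz1* KO replicate 2 brought *Rnf2* (-0.18, adjusted p = 0.0389) and *Phc2* (0.27, adjusted p = 0.00188) past the threshold, for 7 members called. Over the fits without 1 library, the log2 fold change ranged from -0.18 to -0.088 for *Rnf2*, from 0.024 to 0.27 for *Phc2*, from 0.26 to 0.53 for *Phc1*, and from -0.13 to 0.070 for *Ring1*, which reversed without WT replicate 1 (0.070) and without *Patz1* KO replicate 1 (0.047).

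All genes called were 6836 and ranged from 4521 to 7816 without 1 library, lowest without WT replicate 2. The 77 other genes of the subunit lists had 37 calls, 24 with DESeq2 and from 16 (without WT replicate 2) to 44 without 1 library. DESeq2 called 5121 genes over all genes, in place of 6836. With it, 0 other canonical PRC1, 4 PRC2 and 4 deubiquitination genes were called, in place of 1, 7 and 7. With no filter on low counts, 2 other canonical PRC1 genes were called. Without 1 library, the calls ranged from 0 to 2 for other canonical PRC1, 6 to 16 for variant PRC1, 2 to 9 for PRC2, 3 to 7 for deubiquitination, 3 to 5 for CDK inhibitors and 2 to 6 for trithorax genes. Uncalled genes that reversed without 1 library were *Phc3* (range -0.13 to 0.053), *Ezh1* (-0.063 to 0.23), *Ezh2* (-0.028 to 0.13) and *Aebp2* (-0.098 to 0.0096). The change in the *Rnf2* share of RING reads per kilobase ranged from -2.64 to 0.32 points without 1 library and reversed without WT replicate 2 (0.32, main value -1.16). As raw counts with no length scaling, the share of *Cbx2* changed by -20.2 points in place of -26.1, and that of *Cbx8* by 4.73 in place of 8.09. No scaling moved the median of all genes by over 0.1. The replicate block gave 7361 calls over all genes, the same number of members called (5) and no call for *Rbbp4* (adjusted p = 0.0501). Same-numbered libraries share a number alone, and their deviations correlated with r = 0.0485 over 14269 genes. The cause of these differences was not tested.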
